A study of Mus musculus with 45 samples.

Results

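Mast cell genes were followed in ribosome-bound RNA pulled down from the kidney tubules of Pkd1 mutant mice. The set held 8 genes of the 55401 in the count tables, namely *Ms4a2*, *Fcer1a*, *Cpa3*, *Mcpt4*, *Cma1*, *Tpsb2*, *Kit* and *Hdc*. The set was given and was built around *Ms4a2*, and its members were chosen by the high *Ms4a2* values of the male Pkd1KO mice. The *Ms4a2* values of the males are therefore given as a description and without a test, and the tests concern the females and the other 7 genes. In females, *Ms4a2* was the 1 of 5 tested genes that was called higher in Pkd1KO than in noncystic mice in edgeR. Over all genes, 3.34% of 15968 were called there in either direction. *Fcer1a*, *Cpa3*, *Mcpt4* and *Cma1* were at or near 0 in most mice, while *Kit* and *Hdc* were well detected in every group.

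Translating ribosome affinity purification (TRAP) uses a green fluorescent protein tag on the ribosomal protein L10a to isolate the RNA that is being translated in the cells that make the tagged protein. All 45 mice carried the EGFP-L10a allele in the Rosa26 locus together with Pax8rtTA and TetOCre, which drive recombination in kidney tubule cells under oral doxycycline. Doxycycline was given from postnatal day 28 to day 42, and the kidneys were taken at day 49, at 7 weeks of age. The noncystic controls, named wild type in the labels, were heterozygous for the floxed allele (Pkd1 fl/+), the Pkd1KO mice were Pkd1 fl/fl, and the Pkd1KO+ciliaKO mice were Pkd1 fl/fl;Kif3a fl/fl, in which loss of the kinesin subunit Kif3a also removes the primary cilium. There were 8 noncystic, 7 Pkd1KO and 9 Pkd1KO+ciliaKO males, and 7 noncystic, 8 Pkd1KO and 6 Pkd1KO+ciliaKO females, each library being 1 mouse. The transgenes limit the tag to cells that express Pax8, and a pulldown can still carry RNA of other cells. The unbound and whole-kidney RNA was not analysed here, so enrichment of a gene in the pulldown could not be measured. Fewer cells of a type and less RNA per cell cannot be told apart in such samples.

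Total counts ranged from 80874556 to 132958186 per mouse. At this depth 3 counts, the limit that a count of 0 allows, equal 0.0226 to 0.0371 CPM (counts scaled to library size with the trimmed mean of M-values, TMM), and this limit covers counting error only. *Kif3a*, the targeted gene of the cilia mutants, lay between 4.90 and 7.45 CPM in the Pkd1KO+ciliaKO males against 13.8 to 25.5 CPM in noncystic males. In females the library labelled noncystic female 5 had 6.69 CPM of *Kif3a*, where the other noncystic females lay between 23.2 and 25.3 CPM, and the library labelled Pkd1KO+ciliaKO female 6 had 20.7 CPM, where the others of that group lay between 6.56 and 8.47 CPM. Both went against their labels, so results in females are also given without them. *Pkd1* counts cover the whole gene, including exons that are not deleted, and so do not check its labels. Among males, noncystic male 3, Pkd1KO male 4 and Pkd1KO+ciliaKO males 6 and 8 stood apart from the rest in earlier results of these data.

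Mast cells are tissue-resident granulocytes that develop under stem cell factor acting on the receptor tyrosine kinase Kit. They bind immunoglobulin E through the high-affinity receptor FcεRI, made of an IgE-binding alpha chain (*Fcer1a*), a beta chain that amplifies the signal (*Ms4a2*) and a shared gamma chain (*Fcer1g*). Their granules store carboxypeptidase A3 (*Cpa3*), the chymases *Mcpt4* and *Cma1*, the tryptase *Tpsb2*, and histamine made by histidine decarboxylase (*Hdc*). Kit and Hdc are not particular to mast cells, and both are also known from kidney epithelium.

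*Ms4a2* and *Fcer1a* encode chains of the same receptor but differed in level, with 5972 and 4 counts over all 45 mice. Their promoters are shown, and a link between these letters and the counts was not tested. GATA factors are known regulators of mast cell genes, and the letters GATAA were therefore searched on both strands (TTATC on the strand shown) in the 250 bases before the annotated start. The sequences are from RefSeq on GRCm38.p6, written 5′ to 3′ on the strand of the gene, with matches in capitals. *Ms4a2* lies on the minus strand, at chr19:11623720-11623969 for this window, and *Fcer1a* on the minus strand at chr1:173227230-173227479.
Ms4a2: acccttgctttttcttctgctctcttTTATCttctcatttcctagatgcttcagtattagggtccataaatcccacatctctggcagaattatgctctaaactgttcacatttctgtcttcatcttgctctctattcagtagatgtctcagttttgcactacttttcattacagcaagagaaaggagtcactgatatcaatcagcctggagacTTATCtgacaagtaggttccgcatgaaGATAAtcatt
Fcer1a: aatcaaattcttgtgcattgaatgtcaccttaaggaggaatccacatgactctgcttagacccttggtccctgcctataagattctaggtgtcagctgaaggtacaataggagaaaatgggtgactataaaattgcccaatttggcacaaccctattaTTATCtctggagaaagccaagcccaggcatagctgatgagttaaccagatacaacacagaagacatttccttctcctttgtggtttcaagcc
The *Ms4a2* window held 3 matches, beginning 224, 37 and 10 bases before the start. The *Fcer1a* window held 1, which began 92 bases before the start. Of all 32851 promoter windows of this length, 7418 (22.6%) held at least 1 match and 234 (0.712%) held at least 3. Entries were found for 7 of the 8 genes. *Cpa3*, *Mcpt4* and *Cma1* each had 1 match, and *Hdc* and both annotated starts of *Kit* had 0. A match describes the letters in the window and not the binding of a factor.

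*Ms4a2*, the FcεRI beta chain (ENSMUSG00000024680.12, chr19:11615523-11623719, minus strand), was detected in all 45 mice with 5972 counts in all. In noncystic males it ranged from 0.0703 to 0.228 CPM with a median of 0.170. In Pkd1KO males it ranged from 0.836 to 3.49 CPM with a median of 1.08, and the highest values were 3.49 in Pkd1KO male 3 and 2.19 in Pkd1KO male 4. In Pkd1KO+ciliaKO males it ranged from 0.324 to 1.42 CPM with a median of 0.685. Each mouse of both mutant male groups lay above each noncystic male, while the mutant groups overlapped, 2 of 7 Pkd1KO males lying above all 9 Pkd1KO+ciliaKO males. The log2 fold change was 3.31 (SE 0.352) for Pkd1KO against noncystic males, 1.11 (SE 0.329) against Pkd1KO+ciliaKO males, and 2.21 (SE 0.298) for Pkd1KO+ciliaKO against noncystic males. Without the males that stood apart these differences were 3.24, 0.87 and 2.35.

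**Figure D1:**
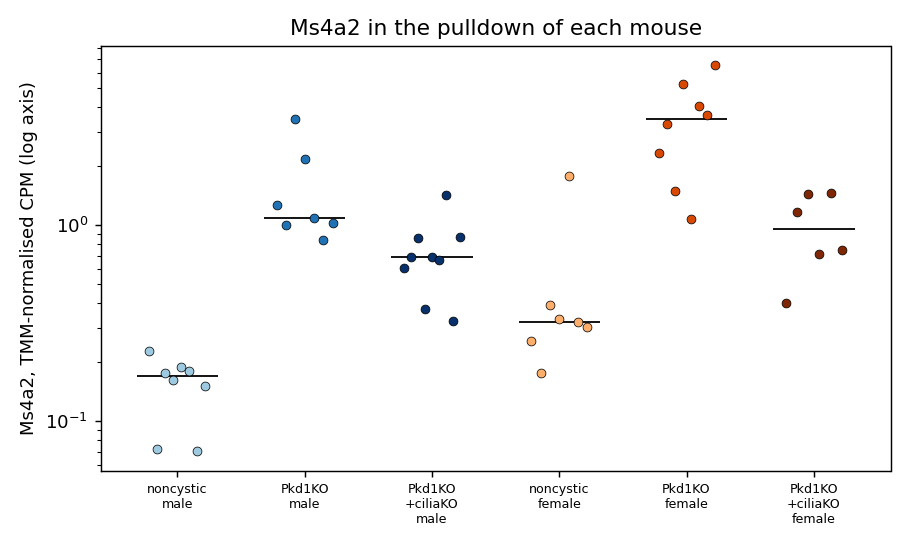
TMM-normalised CPM of *Ms4a2* (log axis) in each of the 45 mice, by group, each point being 1 mouse and each bar the group median. The medians were 0.170, 1.08 and 0.685 CPM in noncystic, Pkd1KO and Pkd1KO+ciliaKO males and 0.322, 3.46 and 0.957 CPM in the same groups of females, with noncystic female 5 at 1.78 CPM above the other noncystic females.

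The females were not used to choose the set, although they belong to the same study. In noncystic females *Ms4a2* ranged from 0.177 to 1.78 CPM with a median of 0.322, and the second highest value after noncystic female 5 was 0.393. In Pkd1KO females it ranged from 1.07 to 6.54 CPM with a median of 3.46, and in Pkd1KO+ciliaKO females from 0.403 to 1.46 CPM with a median of 0.957. Of the 8 Pkd1KO females, 6 lay above all noncystic females and 7 above all Pkd1KO+ciliaKO females, and the latter overlapped with the noncystic females. *Ms4a2* was higher in Pkd1KO than in noncystic females by a log2 fold change of 2.77 (SE 0.497, a fold of 6.83, adjusted p = 0.00411 in edgeR's quasi-likelihood test). By size of change it ranked 4 among the 322 genes that were higher in that comparison. It was also higher in Pkd1KO than in Pkd1KO+ciliaKO females, by 1.80 (SE 0.393, a fold of 3.48, adjusted p = 0.00880 in edgeR), ranking 44 among 1126 higher genes.

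Between Pkd1KO+ciliaKO and noncystic females the *Ms4a2* difference was 0.96 on the log2 scale (SE 0.487, adjusted p = 0.271 in edgeR) and did not pass the threshold of 0.05. This value turned on noncystic female 5. Without this library and Pkd1KO+ciliaKO female 6 the difference was 1.81 (SE 0.321, adjusted p = 0.00758 in edgeR), and without noncystic female 5 alone it was 1.74 (SE 0.307, adjusted p = 0.0109). Without the same libraries Pkd1KO females exceeded noncystic females by 3.55 (SE 0.385, adjusted p = 6.79e-05 in edgeR) and Pkd1KO+ciliaKO females by 1.73 (SE 0.427, adjusted p = 0.0192).

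Per transcript length, *Ms4a2* was low. Its median was 0.179 TPM (a level per transcript length) in noncystic males, 0.366 TPM in noncystic females and 0.743 TPM in Pkd1KO+ciliaKO males. Next in order were Pkd1KO males at 1.12 TPM, Pkd1KO+ciliaKO females at 1.20 TPM and Pkd1KO females at 4.12 TPM. Each group in this order overlapped with the next, and of these steps only the last, from Pkd1KO+ciliaKO to Pkd1KO females, was tested, as given above. The highest level of any mouse was 7.47 TPM, in a Pkd1KO female.

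*Fcer1a*, the alpha chain that binds IgE (ENSMUSG00000005339.10, chr1:173221284-173227214, minus strand), had 4 counts over all 45 mice and 0 in 42 of them. No mouse exceeded 2 counts, which is under the limit of 3, so a difference between groups was not detectable at this depth. The gamma chain *Fcer1g*, which other Fc receptors on several leukocytes share, was detected in all groups. It ranged from 0.397 to 1.23 CPM in noncystic males with a median of 0.606, from 0.643 to 14.7 CPM in Pkd1KO males with a median of 0.949, and from 0.975 to 1.57 CPM in Pkd1KO+ciliaKO males with a median of 1.18. The highest of these was Pkd1KO male 4. *Fcer1g* was higher in Pkd1KO+ciliaKO than in noncystic males by 0.74 (SE 0.198, adjusted p = 0.0253 in edgeR), while its female medians were 0.820, 0.876 and 1.20 CPM in noncystic, Pkd1KO and Pkd1KO+ciliaKO mice.

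*Cpa3* (ENSMUSG00000001865.2, chr3:20215620-20242181, minus strand), the granule carboxypeptidase, had 90 counts over all mice, 0 in 19 of them and at most 11 in any. *Mcpt4* (ENSMUSG00000061068.7, chr14:56059629-56062313, minus strand) had 87 counts and 0 in 17 mice, and *Cma1* (ENSMUSG00000022225.7, chr14:55941451-55944675, minus strand) had 79 counts and 0 in 18 mice. The chymase genes belong to a family of near-identical copies, so reads may be split among them. The microRNA gene Mir7007 lies within *Cpa3*, and the strand setting of the counting is not given in the sources used here.

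The summed counts of *Cpa3*, *Mcpt4*, *Cma1* and *Fcer1a* set the level of the scarcest genes of the set beside *Ms4a2*. In males the sum ranged from 0 to 12 in noncystic mice (median 2.5), from 0 to 20 in Pkd1KO mice (median 1) and from 0 to 15 in Pkd1KO+ciliaKO mice (median 4). *Ms4a2* itself had 6 to 25, 91 to 276 and 39 to 155 counts in the same groups. In females the sum ranged from 0 to 12 in noncystic mice (median 2), from 1 to 11 in Pkd1KO mice (median 4) and from 3 to 23 in Pkd1KO+ciliaKO mice (median 15), beside 22 to 179, 108 to 851 and 41 to 184 counts of *Ms4a2*. The group with the highest median for the sum was thus the Pkd1KO+ciliaKO females, and for *Ms4a2* the Pkd1KO females. The mast cell tryptase *Tpsb2*, which is not in this sum, also had its highest median in Pkd1KO females. It was 0.674 CPM there, 0.477 CPM in Pkd1KO+ciliaKO and 0.329 CPM in noncystic females, and these groups overlapped.

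**Figure D2:**
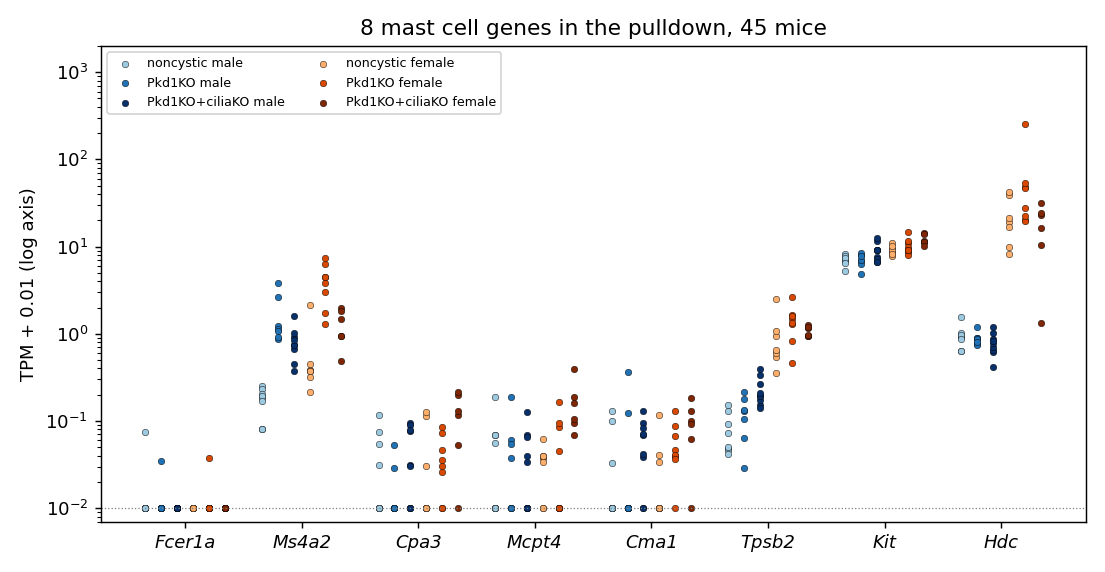
TPM of the 8 genes (0.01 added, log axis) in each of the 45 mice, each point being 1 mouse coloured by group, with genes along the x axis. *Fcer1a*, *Cpa3*, *Mcpt4* and *Cma1* lie near the line that marks 0 in most mice, while *Kit* lies between 4.80 and 14.7 TPM in all mice.

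Genes were tested where 20% or more of a sex had 6 or more counts, and *Mcpt4* did not reach this. In Pkd1KO+ciliaKO females it had 2 to 14 counts (median 4.5), against 0 to 2 counts in noncystic females, and these groups did not overlap in CPM. In Pkd1KO females it had 0 to 6 counts with a median of 0.5. *Cpa3* passed the filter only in females, where it had 0 to 6 counts in noncystic mice, 0 to 4 in Pkd1KO mice and 0 to 11 in Pkd1KO+ciliaKO mice, with medians of 0, 1 and 5.5. The fitted difference between Pkd1KO and Pkd1KO+ciliaKO females was -1.73 on the log2 scale (SE 0.645, adjusted p = 0.0927 in edgeR), and it passed the threshold without Pkd1KO+ciliaKO female 6 (-1.96, adjusted p = 0.0380). Only 5 females had 6 or more counts, and no Pkd1KO female was among them. *Cpa3* was thus tested only because it was higher in the other groups, so nothing is read from this difference. *Cpa3* passed it neither between Pkd1KO and noncystic females (adjusted p = 0.915 in edgeR), where both medians were under 3 counts, nor between Pkd1KO+ciliaKO and noncystic females (adjusted p = 0.327).

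*Tpsb2*, the mast cell beta tryptase (ENSMUSG00000033825.10, chr17:25366305-25369098, plus strand), had 1396 counts and at least 1 in every mouse. It lies 769.8 kb from *Pkd1* on the same chromosome and has a near-identical neighbour, *Tpsab1*, with 212 counts and at most 11 in any mouse. In noncystic males *Tpsb2* had 2 to 7 counts with a median of 0.0293 CPM, in Pkd1KO males 1 to 11 counts with a median of 0.0633 CPM, and in Pkd1KO+ciliaKO males 7 to 18 counts with a median of 0.0952 CPM. All 9 Pkd1KO+ciliaKO males lay above all noncystic males in CPM, whereas the Pkd1KO males overlapped with both other groups. The difference was 1.52 (SE 0.306, adjusted p = 0.00424 in edgeR) for Pkd1KO+ciliaKO against noncystic males. For Pkd1KO males it was 0.73 (SE 0.446, adjusted p = 0.357 in edgeR) against noncystic and -0.78 (SE 0.347, adjusted p = 0.220) against Pkd1KO+ciliaKO males, neither of which passed.

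Females had more *Tpsb2*. It ranged from 0.165 to 1.20 CPM in noncystic females with a median of 0.329, from 0.202 to 1.37 CPM in Pkd1KO females with a median of 0.674, and from 0.403 to 0.551 CPM in Pkd1KO+ciliaKO females with a median of 0.477. The groups overlapped, and noncystic female 5 gave the value of 1.20, the next noncystic female being at 0.529. No female comparison passed, with log2 differences of 0.56 (SE 0.404, adjusted p = 0.555 in edgeR) for Pkd1KO against noncystic, 0.50 (SE 0.306, adjusted p = 0.305) against Pkd1KO+ciliaKO and 0.06 (SE 0.364, adjusted p = 0.944) for Pkd1KO+ciliaKO against noncystic mice.

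Other granule and receptor genes of mast cells were scarce as well. *Tpsg1* had 3 counts over all mice, *Mcpt2* 2, *Ctsg* 3, *Mrgprb1* 8 and *Mrgprb2* 10, and *Mcpt1* and *Mcpt9* were at 0 in every mouse. The basophil protease genes *Mcpt8* and *Prss34* had 2 and 0 counts.

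*Kit*, the stem cell factor receptor (ENSMUSG00000005672.12, chr5:75574916-75656722, plus strand), was abundant in every mouse, with 117213 counts in all. Its medians were 20.8, 23.5 and 25.4 CPM in noncystic, Pkd1KO and Pkd1KO+ciliaKO males and 25.8, 25.8 and 29.2 CPM in the same groups of females. The single mice spanned 15.8 to 40.2 CPM, and all groups overlapped with the others of their sex. In males *Kit* differed by 0.05 (SE 0.110, adjusted p = 0.852 in edgeR) between Pkd1KO and noncystic mice, by -0.18 (SE 0.123, adjusted p = 0.430) between Pkd1KO and Pkd1KO+ciliaKO mice, and by 0.23 (SE 0.0948, adjusted p = 0.140) between Pkd1KO+ciliaKO and noncystic mice. The female differences were 0.15 (SE 0.109, adjusted p = 0.570 in edgeR), -0.14 (SE 0.119, adjusted p = 0.490) and 0.28 (SE 0.0926, adjusted p = 0.105) in the same order. No genotype difference of *Kit* passed the test.

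*Hdc*, the enzyme that makes histamine (ENSMUSG00000027360.5, chr2:126593667-126619299, minus strand), had 159259 counts in all, and its largest contrast was between the sexes. It ranged from 1.40 to 3.40 CPM in noncystic males (median 1.88), from 1.54 to 2.23 CPM in Pkd1KO males (median 1.96) and from 0.856 to 2.38 CPM in Pkd1KO+ciliaKO males (median 1.51). These groups overlapped. None of the male differences passed, being -0.07 (SE 0.176, adjusted p = 0.850 in edgeR) for Pkd1KO against noncystic, 0.28 (SE 0.178, adjusted p = 0.400) against Pkd1KO+ciliaKO and -0.35 (SE 0.199, adjusted p = 0.292) for Pkd1KO+ciliaKO against noncystic mice.

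In females *Hdc* ranged from 16.2 to 80.4 CPM in noncystic mice (median 35.9), from 37.5 to 475 CPM in Pkd1KO mice (median 72.2) and from 2.58 to 57.2 CPM in Pkd1KO+ciliaKO mice (median 33.6). Pkd1KO female 4 had the value of 475, and the next highest Pkd1KO female had 99.9 CPM. Of the 8 Pkd1KO females, 4 lay above all noncystic females and 5 above all Pkd1KO+ciliaKO females. The difference was 1.42 (SE 0.543, adjusted p = 0.180 in edgeR) against noncystic and 1.88 (SE 0.663, adjusted p = 0.0769) against Pkd1KO+ciliaKO females. Without Pkd1KO female 4 these were 0.58 (adjusted p = 0.472 in edgeR) and 1.04 (adjusted p = 0.156). Between Pkd1KO+ciliaKO and noncystic females *Hdc* differed by -0.47 (SE 0.514, adjusted p = 0.637 in edgeR).

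**Figure D3:**
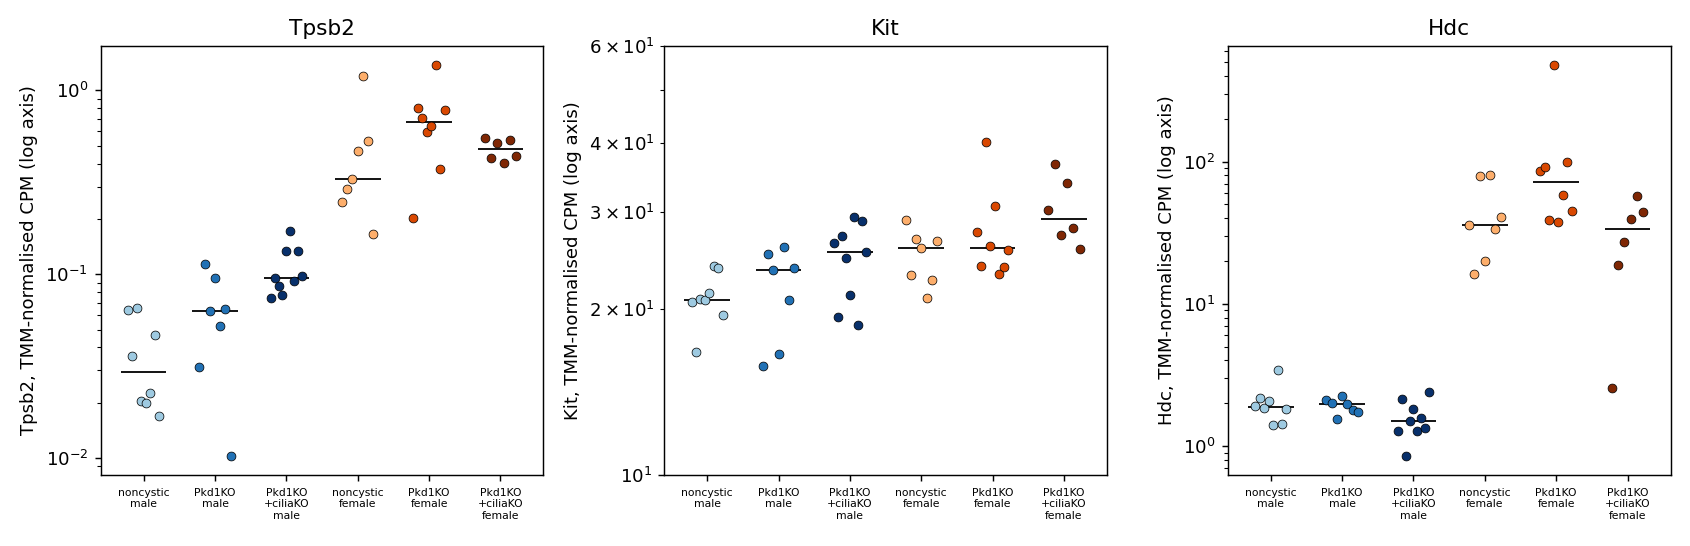
TMM-normalised CPM of *Tpsb2*, *Kit* and *Hdc* (log axes, 1 panel each) in each mouse by group, each point being 1 mouse and each bar the group median. *Tpsb2* and *Hdc* were higher in females, with noncystic medians of 0.329 against 0.0293 CPM and 35.9 against 1.88 CPM, whereas *Kit* lay between 15.8 and 40.2 CPM throughout.

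Counted over the set, 4 genes passed the filter in males (*Ms4a2*, *Tpsb2*, *Kit* and *Hdc*) and 5 in females (also *Cpa3*). *Mcpt4*, *Cma1* and *Fcer1a* passed in neither sex. Between Pkd1KO and noncystic males 6.3% of 15991 tested genes passed the threshold, and of the 4 only *Ms4a2* did, whose male values chose the set, so nothing is read from this count. In females 1 of the 5, again *Ms4a2*, passed between Pkd1KO and noncystic mice against 3.34% of 15968 genes, and 1 of the 5 between Pkd1KO and Pkd1KO+ciliaKO mice against 11.7%. Of the 3 genes other than *Ms4a2* tested in males, 1, *Tpsb2*, passed between Pkd1KO+ciliaKO and noncystic mice, against 8.89% of all genes. Of the same 3, 0 passed between Pkd1KO and Pkd1KO+ciliaKO males in edgeR (3.77% of all genes), *Tpsb2* being below 0.05 before adjustment, and DESeq2 called 0. Between Pkd1KO+ciliaKO and noncystic females 0 of 5 passed in edgeR (2.54% of all genes), *Kit* being below 0.05 before adjustment, and DESeq2 called 0.

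**Figure D4:**
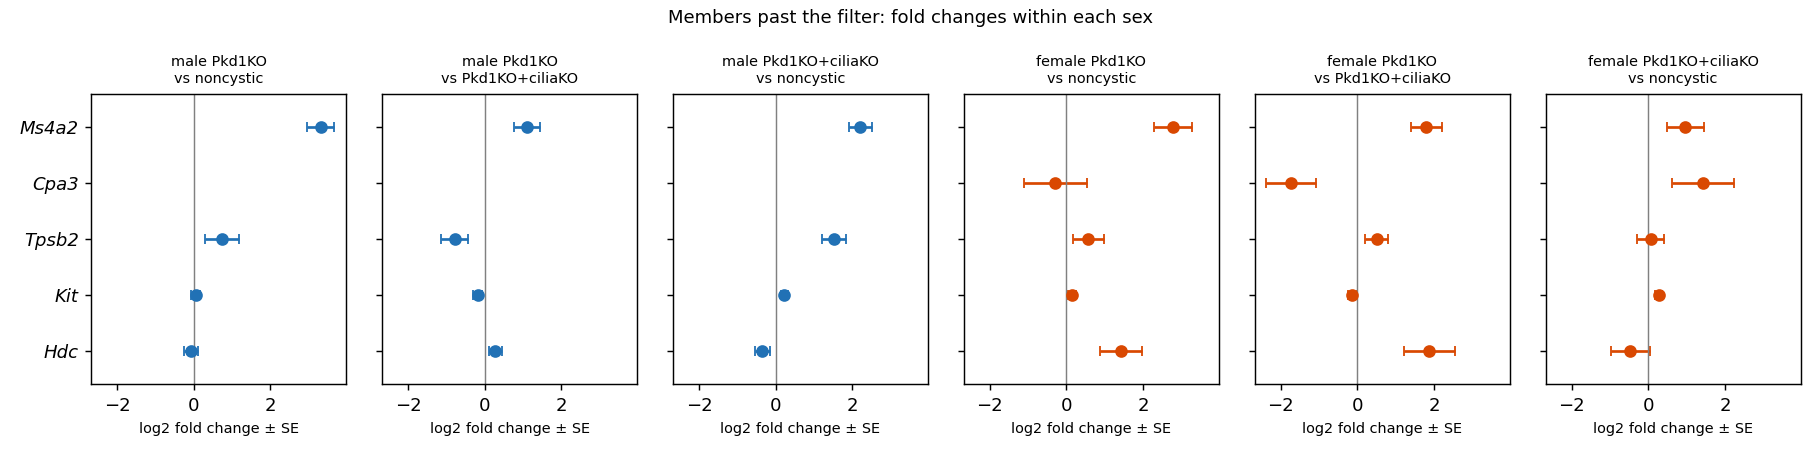
Log2 fold changes with their SE from edgeR for the genes of the set that passed the filter, 1 panel for each of the 6 comparisons within a sex. *Ms4a2* lies at 3.31 and 2.77 for Pkd1KO against noncystic males and females, while *Kit* lies between -0.18 and 0.28 in all 6 panels.

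Noncystic females and males were compared to set the baseline of each gene. *Hdc*, *Tpsb2* and *Kit*, the genes tested here, were each called higher in females, where 12.2% of 15828 genes were called higher and 27.5% in either direction. *Hdc* differed by 4.43 (SE 0.342, adjusted p = 7.26e-08 in edgeR), and *Tpsb2* by 3.59 (SE 0.451, adjusted p = 1.52e-05). *Kit* differed by 0.24 (SE 0.0833, adjusted p = 0.0431 in edgeR), a call that was lost when single mice were left out. *Ms4a2* differed by 1.69, and by 0.91 without noncystic female 5, given without a test.

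Whether a genotype difference itself differed between the sexes was tested by the interaction of sex and genotype. None of *Tpsb2*, *Kit* and *Hdc* passed in edgeR or DESeq2, where 0.0126%, 0.221% and 0.0316% of all genes were called in edgeR for Pkd1KO against noncystic, Pkd1KO against Pkd1KO+ciliaKO and Pkd1KO+ciliaKO against noncystic mice. Before adjustment *Hdc* was below 0.05 in both comparisons of Pkd1KO mice, and *Tpsb2* in the comparisons with Pkd1KO+ciliaKO mice. The *Hdc* change was larger in females by 1.48 (SE 0.632, adjusted p = 0.510 in edgeR) for Pkd1KO against noncystic and by 1.60 (SE 0.642, adjusted p = 0.485) for Pkd1KO against Pkd1KO+ciliaKO mice. The *Tpsb2* change in Pkd1KO+ciliaKO against noncystic mice was smaller in females by 1.46 on the log2 scale, with a signed difference of -1.46 (SE 0.534, adjusted p = 0.628 in edgeR). For *Ms4a2* the female minus male differences were -0.54, 0.70 and -1.24 in the same order, given without a test. Over 5 alternative analyses they ranged from -0.56 to 0.31, from 0.69 to 0.86 and from -1.25 to -0.55, and the first was 0.31 and the last -0.55 without the libraries that stood apart.

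The other genes of the mast cell programme were counted from lists chosen with earlier results of these data known, and over all tested genes the median log2 difference lay between -0.01 and 0.01 in the 6 comparisons within a sex. Of 19 other mast cell genes, 11 passed the filter. Between Pkd1KO and noncystic mice edgeR called 6.3% of all genes in males and 3.34% in females. *Alox5ap*, which presents arachidonic acid to 5-lipoxygenase, was the 1 gene called between Pkd1KO and noncystic males (1.72, SE 0.474, adjusted p = 0.0404 in edgeR), and it was lost in 12 of 22 alternative analyses. Without Pkd1KO male 4 the difference was 0.84 (adjusted p = 0.0662 in edgeR). In females the 1 gene called was lower in Pkd1KO mice, namely *Ltc4s*, the leukotriene C4 synthase (-0.88, SE 0.184, adjusted p = 0.0131 in edgeR). *Ltc4s* ranged from 1.50 to 2.78 CPM in noncystic females with a median of 1.89 and from 0.653 to 1.61 CPM in Pkd1KO females with a median of 1.01, and it kept its call in all 22 alternatives. The list had a median difference of 0.26 in males, which was 0.15 without Pkd1KO male 4, and of -0.06 in females.

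Between Pkd1KO+ciliaKO and noncystic males *Rab27b*, a small GTPase of granule secretion, was higher by 0.46 (SE 0.0954, adjusted p = 0.00522 in edgeR), and *Alox5*, 5-lipoxygenase, by 0.75 (SE 0.233, adjusted p = 0.0498), a call kept in 5 of 24 alternatives. Between Pkd1KO and Pkd1KO+ciliaKO females *Mitf*, a transcription factor of the mast cell lineage, was lower by 0.34 on the log2 scale, at -0.34 (SE 0.0665, adjusted p = 0.00460 in edgeR). *Gata2*, which is needed for mast cell development and is also made in the collecting duct, had medians of 52.6, 41.4 and 47.7 CPM in noncystic, Pkd1KO and Pkd1KO+ciliaKO males and of 61.6, 59.3 and 63.3 CPM in females. Of the basophil list, 3 of 5 genes were tested. *Il4*, the type 2 cytokine, was higher in Pkd1KO than in Pkd1KO+ciliaKO males by 1.19 (SE 0.196, adjusted p = 0.00206 in edgeR). It was lower in the latter than in noncystic males, at -0.91 (SE 0.201, adjusted p = 0.00790 in edgeR). *Kif3a*, the gene deleted in the Pkd1KO+ciliaKO mice, differed by 2.08 and -1.93 in the same comparisons. Whether the *Il4* values come from the deletion at *Kif3a* was not tested.

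All 15 genes of the FcεRI signalling list passed the filter. Between Pkd1KO and noncystic males 0 were called in edgeR, where 6.3% of all genes were. Before adjustment 8 were below 0.05, and DESeq2 called 1, *Lcp2*, an adaptor of the receptor complex. The list's median difference was 0.91, and it was 0.16 without Pkd1KO male 4. Between Pkd1KO and noncystic females 0 were called in edgeR, where 3.34% of all genes were. Before adjustment 0 were below 0.05, DESeq2 called 0, and the median difference was -0.01. *Lyn*, the kinase that phosphorylates the beta and gamma chains, was present in all groups with medians from 22.7 to 26.0 CPM. Against Pkd1KO+ciliaKO females *Plcg1* (-0.25, SE 0.0756, adjusted p = 0.0433 in edgeR) and *Gab2* (-0.26, SE 0.0671, adjusted p = 0.0191), a phospholipase and a scaffold of the pathway, were lower in Pkd1KO females.

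Of the 10 genes around Kit, 0 were called between Pkd1KO and noncystic mice in edgeR or DESeq2 in either sex, with 1 below 0.05 before adjustment in each. Of all genes, edgeR called 6.3% in males and 3.34% in females. *Kitl*, stem cell factor itself, had medians of 15.0, 12.0 and 16.2 CPM in noncystic, Pkd1KO and Pkd1KO+ciliaKO males and of 20.3, 18.0 and 23.1 CPM in females. It was lower in Pkd1KO than in Pkd1KO+ciliaKO females (-0.38, SE 0.119, adjusted p = 0.0472 in edgeR), a call kept in 7 of 21 alternatives. Of the 9 genes of histamine breakdown, transport and reception, 8 were tested and 0 were called in edgeR in any of the 6 comparisons, with 0 to 3 below 0.05 before adjustment and 0 or 1 called by DESeq2. Over these comparisons edgeR called 2.54% to 11.7% of all genes.

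Among 9 growth and attracting factors of mast cells, 7 were tested. *Ccl5*, a chemokine for several leukocytes, ranged from 0.419 to 0.901 CPM in noncystic males, from 1.16 to 6.08 CPM in Pkd1KO males and from 0.414 to 0.955 CPM in Pkd1KO+ciliaKO males, so that the Pkd1KO males lay above both other groups. It was higher in Pkd1KO than in noncystic mice by 1.81 in males (SE 0.349, adjusted p = 0.00467 in edgeR) and by 1.01 in females (SE 0.201, adjusted p = 0.00879). Against Pkd1KO+ciliaKO mice *Ccl5* was higher by 1.71 in males (SE 0.343, adjusted p = 0.00886 in edgeR) and by 2.17 in females (SE 0.218, adjusted p = 5.63e-05). *Tslp*, an epithelial cytokine that acts on mast cells, had medians of 0.290, 0.584 and 0.340 CPM in noncystic, Pkd1KO and Pkd1KO+ciliaKO males. It was higher in Pkd1KO than in noncystic males by 1.09 (SE 0.223, adjusted p = 0.00707 in edgeR), and its female medians were 0.484, 0.934 and 0.480 CPM, where no comparison passed in edgeR and DESeq2 called Pkd1KO against both other groups.

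Among males, the summed markers of other leukocytes were highest in 1 library, Pkd1KO male 4. Of 34 immune genes, 24 were tested in males, and between Pkd1KO and noncystic males 2 were called, *Nkg7* of natural killer cells and *Csf1r* of macrophages, beside 6.3% of all genes. Without Pkd1KO male 4 the call of *Nkg7* was lost and 1 of 24 was called, and without all the males that stood apart 0 were. The median difference of the list was 1.23, and it was 0.37 without Pkd1KO male 4. The macrophage genes other than *Csf1r* summed to 5.84 to 18.6 CPM in noncystic males, 13.7 to 205 CPM in Pkd1KO males (median 16.8) and 12.5 to 26.6 CPM in Pkd1KO+ciliaKO males. Pkd1KO male 4 gave the value of 205, and the next highest Pkd1KO male had 22.5 CPM. *Csf1r*, not in this sum, lay at 61.4 to 88.6 CPM in noncystic and 84.8 to 113 CPM in Pkd1KO males. In Pkd1KO+ciliaKO males it lay at 37.9 to 78.6 CPM. *Csf1r* was higher in Pkd1KO than in Pkd1KO+ciliaKO males by 0.77 (SE 0.125, adjusted p = 0.00187 in edgeR). Between Pkd1KO+ciliaKO and noncystic males it differed by -0.42 (SE 0.124, adjusted p = 0.0420 in edgeR). The highest *Ms4a2* of the males, 3.49 CPM, was in Pkd1KO male 3, and without Pkd1KO male 4 the *Ms4a2* difference between Pkd1KO and noncystic males was 3.21.

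In females the macrophage sum without *Csf1r* ranged from 8.65 to 22.2 CPM in noncystic and from 10.1 to 29.1 CPM in Pkd1KO mice. In Pkd1KO+ciliaKO females it ranged from 10.2 to 24.1 CPM. *Csf1r* itself lay at 48.3 to 67.4 CPM in noncystic, 52.4 to 106 CPM in Pkd1KO and 30.5 to 52.6 CPM in Pkd1KO+ciliaKO females. It was higher in Pkd1KO than in Pkd1KO+ciliaKO females by 0.78 (SE 0.158, adjusted p = 0.00581 in edgeR). Of the immune genes 21 were tested in females, and 0 were called between Pkd1KO and noncystic mice in edgeR and in DESeq2. Over all genes edgeR called 3.34% there. Before adjustment 2 of the immune genes were below 0.05, and their median difference was 0.05. The part of other leukocytes in the *Ms4a2* values was not tested. The 5 proximal tubule genes, markers of the tagged epithelium, summed to 3909 to 10089 CPM per mouse. Single genes of this list differed by genotype. Between Pkd1KO+ciliaKO and noncystic males the genes called lower in edgeR included *Slc5a12* (-0.62), *Cubn* (-0.50) and *Lrp2* (-0.49), where 8.89% of all genes were called. *Cubn* was also lower in Pkd1KO than in noncystic males (-0.46, adjusted p = 0.0475 in edgeR).

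**Figure D5:**
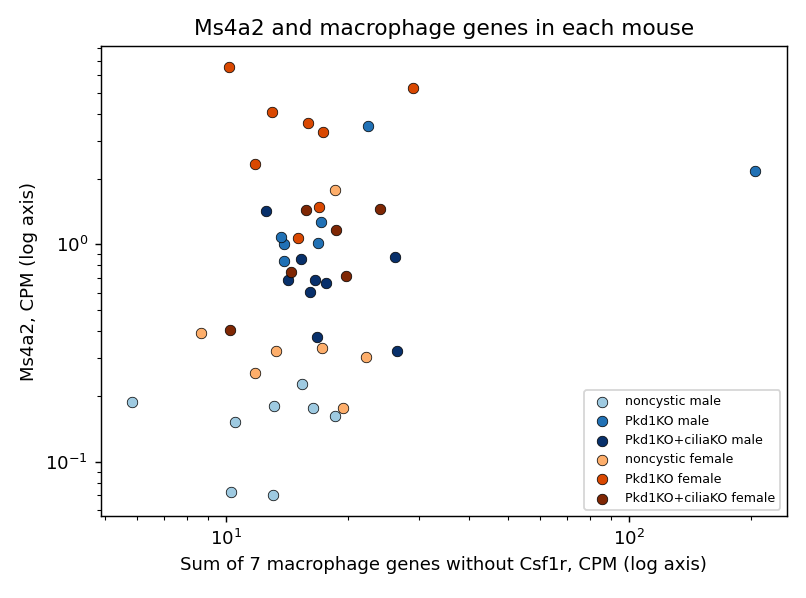
*Ms4a2* (y axis, CPM, log) against the sum of 7 macrophage genes without *Csf1r* (x axis, CPM, log) in each mouse, each point being 1 mouse coloured by group. Pkd1KO male 4 stands at 205 CPM of macrophage genes and 2.19 CPM of *Ms4a2*, and the Pkd1KO females reach 6.54 CPM of *Ms4a2* with 10.1 to 29.1 CPM of macrophage genes.

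The genes whose pattern was most like that of *Ms4a2* were found by Spearman's rho over the 45 mice among 15827 other genes, as a description, since mice of a group share genotype and all libraries share depth. The 5 highest were *Npy2r* (rho 0.879), *Psrc1* (0.862), *Mybpc2* (0.858), *Prss23* (0.849) and *Eda2r* (0.843). *Npy2r*, a receptor for neuropeptide Y, had medians of 0.0463, 0.370 and 0.144 CPM in noncystic, Pkd1KO and Pkd1KO+ciliaKO males and of 0.0781, 0.708 and 0.173 CPM in females. *Npy2r* had a rho of 0.825 within the 24 males and of 0.919 within the 21 females. *Prss23*, a serine protease, had medians of 9.41, 16.8 and 13.5 CPM in males and of 14.4, 22.6 and 17.5 CPM in females, in the same order. *Eda2r*, a receptor of the tumour necrosis factor family, had medians of 1.55, 4.29 and 4.14 CPM in males and of 3.02, 5.55 and 4.03 CPM in females.

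The other genes of the set that were ranked had lower values of rho. *Tpsb2* had a rho of 0.518 and ranked 695, *Hdc* a rho of 0.447 and ranked 1183, and *Kit* a rho of 0.180 and ranked 4542. For *Hdc* the rho was 0.045 within the males and 0.686 within the females. With Pearson's r on the log scale 2 of the 5 named genes (*Npy2r* and *Prss23*) were among the 5 most alike, and with deviations from the 6 group means 0 were.

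*Ms4a2* lies in a cluster of related genes on chromosome 19. Of 36 protein-coding genes within 500 kb, 15 were tested in males and 14 in females. In edgeR 0 were called in males and 1 in females, *Osbp*, an oxysterol-binding protein that was lower in Pkd1KO than in Pkd1KO+ciliaKO mice. Over all genes 3.77% to 8.89% were called in the male comparisons and 2.54% to 11.7% in the female ones. The closest gene, *Ms4a3*, begins 5.777 kb away and had 0 counts in every mouse, and *Ms4a6d*, 10.674 kb away on the other side, had 545 counts. Of the 18 other Ms4a genes, 9 were tested and 0 were called in any of the 6 comparisons in edgeR (2.54% to 11.7% of all genes), with 0 to 6 below 0.05 before adjustment. Their median difference between Pkd1KO and noncystic mice was 1.56 in males and -0.17 in females. Their summed level was 16.2 CPM in Pkd1KO male 4, where the next highest Pkd1KO male had 2.63 CPM and the noncystic males 0.714 to 2.68 CPM.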

How the data were processed

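RNASeq of TRAP pulldown RNA from 45 mice in 6 groups was used, with groups taken from the labels. Per the study's methods and processing notes, reads were trimmed with fastp 0.20.0, aligned to GRCm38.p6 with STAR 2.7.9 and counted per gene with featureCounts 2.0.0. The strand and multimapping settings of the counting are not given in the sources used here. The deposited values were raw counts per gene, whole numbers with 80874556 to 132958186 per mouse, and TPM that the authors computed from them, 1 table per sex. TPM recomputed from the counts matched the deposited TPM, and the same formula gave the TPM of genes under the filter.

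Tests used the protein-coding genes of the deposited TPM tables, which had 6 or more counts in 20% or more of a sex, and pairs of groups were tested within a sex with edgeR 4.0.16 (TMM, quasi-likelihood test, R 4.3.3), with Benjamini-Hochberg adjustment over all tested genes and a threshold of 0.05. The fit was tested on simulated data. Alternatives were DESeq2 1.42.0, limma 3.58.1 (voom with sample weights), other size factors, no filter, one fit for 3 genotypes, the replicate number as a block, and leaving out libraries. The study's own tool was DESeq2. Each library is 1 mouse per the labels, and no 2 libraries agreed within sampling noise.

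The 8 genes and the lists were chosen with earlier results of these data known. All 8 genes are named, as are list genes called in a comparison within a sex, except a gene not reported here, the 5 genes most like *Ms4a2* by Spearman's rho of CPM, and neighbours that were called. Other list genes named by their levels were chosen after their values were seen. Promoter sequences came from RefSeq.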

Additional observations from a re-analysis of the deposited data

Results flagged for a closer look

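Single mice stood far from the rest of their group for 6 of 27 combinations of gene and group, by the gap of the highest or lowest mouse to its nearest neighbour relative to the group's range. The rule's nominal rate is about 1 in 20 for independent values. The same libraries recur across genes here, so nothing is read from the count.

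For *Ms4a2*, Pkd1KO+ciliaKO male 7 had 1.42 CPM against 0.872 in the next mouse, and noncystic female 5 had 1.78 CPM against 0.393. Noncystic female 5 also had the highest *Tpsb2* of its group, 1.20 CPM against 0.529, and it is the library whose *Kif3a* went against its label. For *Kit*, Pkd1KO female 3 had 40.2 CPM against 30.8. For *Hdc*, noncystic male 6 had 3.40 CPM against 2.17, and Pkd1KO female 4 had 475 CPM, or 50660 counts, against 99.9. The cause of these values was not tested.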

How the results depend on the processing

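Counts over the set in males include *Ms4a2*, whose male values chose the set, and are a description. In 154 of 169 alternative values for the counts over the set the count was unchanged or within 1.5 times. Between Pkd1KO and Pkd1KO+ciliaKO males the count of 0 became 1 with DESeq2 and with all 3 genotypes in one fit, and leaving out single mice gave 0 to 1 (1 without Pkd1KO+ciliaKO male 7). Between Pkd1KO and Pkd1KO+ciliaKO females the count of 1 became 2 with DESeq2 and with one fit for the 3 genotypes (*Hdc*, adjusted p = 0.0400 in DESeq2). It became 2 without the libraries whose *Kif3a* went against the label (*Cpa3*), and leaving out single mice gave 1 to 2. Nothing is read from the call of *Cpa3*, which passed the filter on low counts without any Pkd1KO female. Between Pkd1KO+ciliaKO and noncystic females the count of 0 became 1 with no filter (*Mcpt4*, adjusted p = 0.0450 in edgeR), 1 with voom weights (*Ms4a2*, adjusted p = 0.0255) and 1 without the discordant libraries, and leaving out single mice gave 0 to 1 (1 without noncystic female 5). Of the 5 genes most like *Ms4a2*, 2 were kept with Pearson's r and 0 with deviations from group means. The cause was not tested.

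Replicate numbers did not pair the mice, since correlations of same-numbered mice ranged from -0.33 to 0.36 and exceeded 0.1 in 13 of 48 pairs. With the replicate block the count fell from 2 to 1 for Pkd1KO+ciliaKO against noncystic males (*Tpsb2*, adjusted p = 0.0502 in edgeR) and from 1 to 0 for Pkd1KO against Pkd1KO+ciliaKO females (*Ms4a2*, 1.50, adjusted p = 0.111), and *Kit* between noncystic females and males lost its call (0.22, adjusted p = 0.102).

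Tested differences that changed sign all missed the threshold. Leaving out single mice gave -0.135 to 0.0786 for *Hdc* and -0.0036 to 0.11 for *Kit* between Pkd1KO and noncystic males, -0.62 to 0.31 for *Cpa3* between Pkd1KO and noncystic females, and -0.083 to 0.51 for *Tpsb2* between Pkd1KO+ciliaKO and noncystic females. Without the libraries that stood apart, the sex difference of *Tpsb2* in Pkd1KO against noncystic mice was 0.24 (-0.17 with them), and that of *Kit* in Pkd1KO against Pkd1KO+ciliaKO mice was -0.13 (0.05 with them). That of *Ms4a2* in Pkd1KO against noncystic mice, given without a test, was 0.31 (-0.54 with them).

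Counts over all genes moved more. For Pkd1KO against noncystic, Pkd1KO against Pkd1KO+ciliaKO and Pkd1KO+ciliaKO against noncystic mice they were 1008, 603 and 1422 in males and 533, 1869 and 405 in females. Over the alternatives that kept all or dropped named libraries they ranged over 800 to 1640, 170 to 1389 and 764 to 2803 in males and over 294 to 964, 612 to 2634 and 100 to 1357 in females, and the lowest of each of these was the replicate block. Leaving out single mice gave 742 to 1155, 403 to 630 and 965 to 2359 in males and 349 to 676, 1241 to 2084 and 8 to 746 in females, with 2359 without noncystic male 3, 349 without noncystic female 6, 1241 without Pkd1KO+ciliaKO female 3, 8 without Pkd1KO+ciliaKO female 2 or 3 and 746 without noncystic female 5. Depth limits *Fcer1a*, *Mcpt4*, *Cma1* and, in males, *Cpa3*, which did not pass the filter on low counts and were tested only with no filter.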
